A study of Oryza sativa with 12 samples.

Results

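Rice takes up inorganic nitrogen as nitrate or ammonium and turns it into amino acids, and 9 genes of that route were followed here in rice leaves. They were taken from the deposited tables by identifier, from a list of 9 that names the nitrate reductases NIA1 and NIA2, nitrite reductase (NiR), the transporters NRT2.1 and AMT1;1, the glutamine synthetases GS1;1 and GS2, ferredoxin-dependent glutamate synthase (Fd-GOGAT) and the asparagine synthetase ASN1. All 9 are among the 35679 genes of the tables, and 8 of them had enough reads to be tested, since NRT2.1 did not pass the filter on low counts. The names are those of the list, and the tables used here do not pair these identifiers with names.

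Nitrate that reaches a leaf cell is reduced to nitrite by nitrate reductase in the cytosol, and nitrite is reduced to ammonium by nitrite reductase in the plastid. Glutamine synthetase joins ammonium to glutamate to give glutamine, and glutamate synthase passes the amide group on to form glutamate. The plastid enzymes GS2 and Fd-GOGAT work in green leaves, where they also recapture the ammonium released by photorespiration, whereas cytosolic GS1;1 is known for nitrogen remobilization and transport, and asparagine synthetase moves amide nitrogen onto aspartate to give asparagine, a transport and storage form.

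The RNA came from leaves of unstressed four-leaf-stage rice seedlings in liquid culture, under 16 h of light at 28°C and 8 h of dark at 24°C. OsbZIP62V plants overexpress the bZIP transcription factor gene OsbZIP62 fused to the activation module VP64 in the cultivar Kitaake, and wild-type Kitaake was their control. The osbzip62 plants carry CRISPR/Cas9 mutations of the same gene in the cultivar Nipponbare, and wild-type Nipponbare was their control. Each group had 3 libraries, described as biological replicates of pooled plants, and each transgenic group is a single line by its labels (OE1 and C54), so construct and line cannot be told apart. The sources used here do not give the promoter that drives the fusion, and the level of OsbZIP62 itself was not analysed, because the study names its locus in another numbering than the tables use and no key between the numberings was used here. The hour of sampling is not given either.

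The total count per library ranged from 9224755 to 19759728. OsbZIP62V replicate 3 and Nipponbare replicate 3 stood apart in scaling, with normalization factors of 1.23 and 0.802 against 0.919 to 1.08 for the other 10 libraries, and values without them are given beside the members that moved most. A list of 6 leaf mesophyll and chloroplast genes summed to 72864 to 96530 CPM (counts set relative to the library total, so that libraries of different depth compare) in OsbZIP62V, 88486 to 92219 in Kitaake, 116855 to 122404 in osbzip62 and 106659 to 146426 in Nipponbare, with no member at 0. The 5 root genes summed to 85.6 to 192 CPM over all libraries, with 1 to 3 of them at 0 in each. The names of the genes on these lists could not be checked against the tables either. In these bulk samples, fewer cells of a type and less RNA per cell cannot be told apart.

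Levels of the members are given as CPM after scaling over the 12 libraries, which compares a gene between libraries. The sums over gene lists and the limit for NRT2.1 are CPM of the library total, without that scaling. To compare different genes, the deposited RPKM were used, which are reads divided by library size and gene length. On that scale GS2 was the highest of the 9 genes in 12 of 12 libraries, with a median of 485 RPKM, and it ranked between 88 and 134 among the 35679 genes. GS1;1 had a median of 171 RPKM, Fd-GOGAT 144, NIA1 138, AMT1;1 135, NiR 113 and NIA2 74.1. ASN1 was lower at a median of 19.6 RPKM, with a range of 4.92 to 129. The lengths behind these values (15124 bases for Fd-GOGAT, 1920 for NRT2.1) were recovered from the tables, and the sources do not say whether introns were counted in them, which would lower the RPKM of long, intron-rich genes.

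**Figure D1:**
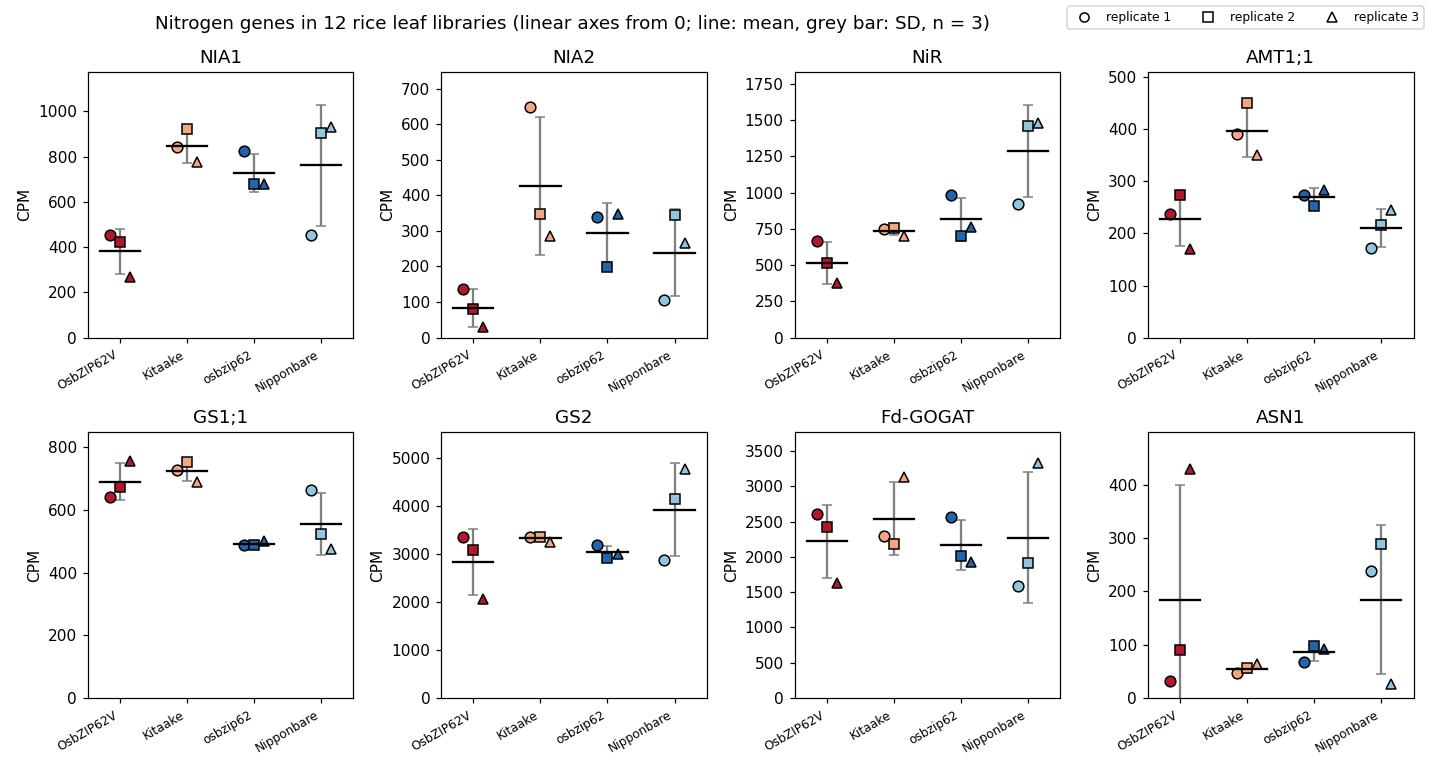
Levels in CPM (linear axes from 0) of the 8 tested nitrogen genes in each library of OsbZIP62V, Kitaake, osbzip62 and Nipponbare, with the mean as a line and the SD as a grey bar (n = 3, the lower end of the ASN1 bar in OsbZIP62V being cut at 0). NIA2 sits at 29.9 to 137 CPM in OsbZIP62V and at 287 to 648 CPM in Kitaake, while the ASN1 libraries of OsbZIP62V and of Nipponbare are widely spread.

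For uptake, NRT2.1 (OS02G0112100, on chromosome 2 by its identifier), a high-affinity nitrate transporter known mainly from roots, was nearly absent. It had 2 counts in Kitaake replicate 2, 1 count in osbzip62 replicate 1 and 0 in the other 10 libraries. A count of 0 allows a level of up to 0.152 to 0.325 CPM (3 counts, counting error only), so no difference between groups was detectable at this depth. The gene listed as its near copy had 1 count over all libraries.

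AMT1;1 (OS04G0509600, chromosome 4), a transporter of ammonium across the plasma membrane, was most abundant in Kitaake. It had 237, 274 and 171 CPM in OsbZIP62V, against 392, 450 and 350 CPM in Kitaake. Every OsbZIP62V library was below every Kitaake library, as in 14.8% of the genes tested. The fold change of 0.590 (95% interval 0.432 to 0.806, log2 -0.76 with a standard error of 0.20) missed the threshold, at an adjusted p of 0.0547 (edgeR's quasi-likelihood test, Benjamini-Hochberg adjustment over all genes tested). It passed with DESeq2 (adjusted p = 0.00373) and without OsbZIP62V replicate 2 (adjusted p = 0.0292). It did not pass without any 1 of the Kitaake libraries (adjusted p 0.155 to 0.220). Nor did it without OsbZIP62V replicate 1 (adjusted p = 0.116) or replicate 3 (adjusted p = 0.0569). It had 274, 252 and 284 CPM in osbzip62, against 172, 217 and 244 CPM in Nipponbare. All 3 mutant libraries were above all 3 of Nipponbare, as in 12.8% of the genes tested there, by a log2 fold change of 0.36 (standard error 0.18) that did not pass the test (adjusted p = 0.358). Between the wild types it was 1.87-fold higher in Kitaake than in Nipponbare (95% interval 1.37 to 2.57, adjusted p = 0.0174), a call that was lost without any 1 of the Kitaake libraries (adjusted p 0.0592 to 0.0966) or without Nipponbare replicate 2. Marker lists also differed between the wild types. Of the 6 leaf mesophyll and chloroplast genes 2 passed lower in Kitaake (median log2 -1.21), of the 5 senescence genes 2 passed higher (sums of 206 to 266 CPM in Kitaake and 150 to 179 CPM in Nipponbare), of the 2 testable root genes 1 passed higher and 1 lower, and of the 5 time-of-day genes 1 passed lower, where 9.51% of all genes passed higher and 10.4% lower. Their part in the AMT1;1 value was not tested. The Kitaake libraries serve in both of the comparisons that involve them, so the lower value against Kitaake and the higher value of Kitaake are not independent.

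In the test with all libraries, the effect on this transporter differed between the transgenic groups. Those groups differ in cultivar as well as in construct, and this contrast cannot tell the cultivar from the construct. In a fit of all 12 libraries, the OsbZIP62V effect minus the osbzip62 effect was -1.16 on the log2 scale (standard error 0.27, 95% interval -1.76 to -0.56, adjusted p = 0.0354), and 7.1% of the 21878 genes tested passed this test. It was the 1 member of 8 that did. Leaving out 1 library at a time kept the difference between -1.32 and -1.02, with an adjusted p of 0.0164 to 0.0951, and the test was passed in 2 of these 12 fits, those without OsbZIP62V replicate 2 and without Nipponbare replicate 3. Without OsbZIP62V replicate 3 the difference was -1.02 (adjusted p = 0.0756).

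The clearest difference of OsbZIP62V from Kitaake was in nitrate reduction. Both nitrate reductase genes fell, and they were the members past the test, 2 of 8, all in the lower direction, where 2.89% of the 19864 genes tested passed. No member passed in the higher direction, where 4.54% of genes did.

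NIA1 (OS08G0468100, chromosome 8), which encodes a nitrate reductase, had 451, 422 and 269 CPM in OsbZIP62V, against 840, 921 and 776 CPM in Kitaake. The groups did not overlap, as in 14.8% of the genes tested in this direction, and the means were 381 ± 98.0 and 846 ± 73.0 CPM (SD, n = 3 each). The fold change was 0.464 (95% interval 0.329 to 0.655, log2 -1.11 with a standard error of 0.22, adjusted p = 0.0246 by edgeR). NIA2 (OS02G0770800, chromosome 2), the other nitrate reductase of the list, had 137, 81.0 and 29.9 CPM in OsbZIP62V, against 648, 347 and 287 CPM in Kitaake. Again no library of one group reached the other, and the fold change was 0.199 (95% interval 0.0850 to 0.465, log2 -2.33 with a standard error of 0.53, adjusted p = 0.0401 by edgeR).

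Without OsbZIP62V replicate 3, which had the lowest value of its group for both genes, both still passed, at log2 fold changes of -0.92 (adjusted p = 0.00786) for NIA1 and -1.93 (adjusted p = 0.0290) for NIA2. Without any 1 of the Kitaake libraries neither did: the log2 fold changes were -1.05 to -1.18 for NIA1 (adjusted p 0.111 to 0.146) and -1.91 to -2.56 for NIA2 (adjusted p 0.137 to 0.176), in fits that also called 206 to 264 genes over the whole table at a log2 change over 1 either way, against 1178 with all 6 libraries. An identifier listed as a near copy of NIA1 held 0.396% to 2.88% of the counts of the pair, and NIA1 also passed with its counts added.

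Neither gene passed the test in the osbzip62 mutants. NIA1 had 825, 677 and 680 CPM in osbzip62, against 452, 903 and 929 CPM in Nipponbare, with a log2 fold change of -0.06 (95% interval -0.77 to 0.65, adjusted p = 0.938). NIA2 had 339, 198 and 348 CPM in osbzip62, against 105, 346 and 265 CPM in Nipponbare, with a log2 fold change of 0.31 (95% interval -0.73 to 1.36, adjusted p = 0.753). For both genes the groups overlapped and Nipponbare replicate 1 had the lowest level in Nipponbare, and the wide intervals leave room for changes in either direction. The effects of the transgenic groups on these genes differed by -1.09 (NIA1, adjusted p = 0.101) and -2.68 (NIA2, adjusted p = 0.0609) on the log2 scale, short of the threshold in the fit of 12 libraries. Between the wild types neither gene passed the test, with log2 fold changes of Kitaake over Nipponbare of 0.15 (adjusted p = 0.765) for NIA1 and 0.84 (adjusted p = 0.248) for NIA2.

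NiR (OS01G0357100, chromosome 1), which acts after nitrate reductase, had 664, 515 and 374 CPM in OsbZIP62V, against 750, 757 and 704 CPM in Kitaake. Every OsbZIP62V library was below every Kitaake library, as in 14.8% of the genes tested. The log2 fold change of -0.46 (95% interval -0.96 to 0.04) did not pass (adjusted p = 0.231), and it came to -0.28 (adjusted p = 0.326) without OsbZIP62V replicate 3. NiR had 983, 703 and 763 CPM in osbzip62, against 921, 1463 and 1479 CPM in Nipponbare, with an overlap at Nipponbare replicate 1 and a log2 fold change of -0.65 (adjusted p = 0.276). It was the 1 member of 8 at an unadjusted p under 0.05 (edgeR) in either direction of the mutant comparison. Of the 20398 genes tested there, 8.19% reached that level in the lower direction and another 8.67% in the higher. All 3 Kitaake libraries were below all 3 of Nipponbare, as in 19.8% of the genes tested between the wild types, at a log2 fold change of -0.81 (95% interval -1.37 to -0.25, adjusted p = 0.0517). This passed without Nipponbare replicate 1 (adjusted p = 0.0100) and without Nipponbare replicate 3 (adjusted p = 0.0406). It did not pass without any 1 of the Kitaake libraries (adjusted p 0.177 to 0.182) or without Nipponbare replicate 2 (adjusted p = 0.174).

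**Figure D2:**
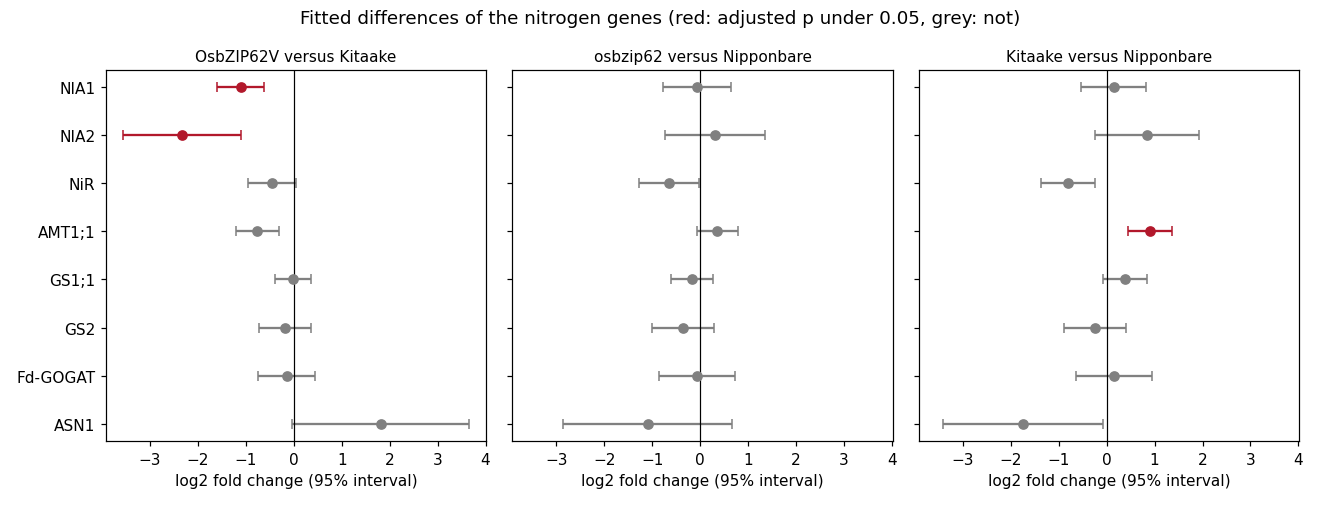
Log2 fold changes with 95% intervals from edgeR for the 8 tested genes, for OsbZIP62V over Kitaake, osbzip62 over Nipponbare and Kitaake over Nipponbare (red where the adjusted p is under 0.05, grey otherwise). NIA1 (-1.11) and NIA2 (-2.33) pass in the first panel, none in the second and AMT1;1 (0.91) in the third.

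Marker lists were read beside the nitrate reductase result, as sums of CPM without the scaling factors used for the members. The 5 senescence genes summed to 306, 504 and 379 CPM in OsbZIP62V, against 206, 245 and 266 CPM in Kitaake, with 1 of 5 past the test, higher (4.54% of all genes), and none at 0. They summed to 317, 452 and 423 CPM in osbzip62, against 179, 172 and 150 CPM in Nipponbare, with 2 of 5 past the test, higher (0.377% of all genes). Of the 6 leaf mesophyll and chloroplast genes, whose sums are given above and overlapped, 1 passed higher in OsbZIP62V. The 5 root genes summed to 85.6 to 148 CPM in OsbZIP62V, against 158 to 192 CPM in Kitaake, and the 5 genes of dividing cells to 12.2 to 16.7 CPM in OsbZIP62V, against 18.7 to 20.5 CPM in Kitaake, with 0 to 3 genes of a list at 0. None of the 2 root genes and 4 genes of dividing cells that could be tested passed. The 5 time-of-day genes summed to 3143 to 3760 CPM in OsbZIP62V, against 2941 to 3851 CPM in Kitaake, so those groups overlapped, and none of the 5 passed. The part of these lists in the nitrate reductase result was not tested.

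The ammonium-assimilating genes did not pass the test in any of the 3 comparisons. GS2 (OS04G0659100, chromosome 4), the plastid glutamine synthetase, had 3361, 3087 and 2064 CPM in OsbZIP62V, against 3361, 3347 and 3258 CPM in Kitaake. Only OsbZIP62V replicate 3 lay far from the rest, and the log2 fold change was -0.18 (95% interval -0.73 to 0.37, adjusted p = 0.683), or -0.01 without that library. GS2 had 3179, 2918 and 3001 CPM in osbzip62, against 2863, 4151 and 4759 CPM in Nipponbare, at a log2 fold change of -0.37 (95% interval -1.01 to 0.28, adjusted p = 0.528), or -0.21 (adjusted p = 0.605) without Nipponbare replicate 3. Its 3 Kitaake libraries differed by 1.03-fold, and its 3 Nipponbare libraries by 1.66-fold.

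GS1;1 (OS02G0735200, chromosome 2), the cytosolic enzyme, had 642, 674 and 757 CPM in OsbZIP62V, against 728, 755 and 691 CPM in Kitaake. Its fold change was the nearest to 1 of the 8 genes, at 0.989 (95% interval 0.763 to 1.28, adjusted p = 0.963). In osbzip62 it had 487, 489 and 501 CPM, against 665, 525 and 477 CPM in Nipponbare, at a log2 fold change of -0.17 (95% interval -0.61 to 0.26, adjusted p = 0.668). All 3 Kitaake libraries were above all 3 of Nipponbare, as they were for AMT1;1 and for 19.4% of the genes tested, by a log2 fold change of 0.38 that did not pass (adjusted p = 0.219).

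Fd-GOGAT (OS07G0658400, chromosome 7) had 2608, 2416 and 1632 CPM in OsbZIP62V, against 2297, 2185 and 3137 CPM in Kitaake. It had 2570, 2005 and 1919 CPM in osbzip62, against 1581, 1909 and 3326 CPM in Nipponbare. The groups overlapped in both, with log2 fold changes of -0.15 (95% interval -0.74 to 0.44, adjusted p = 0.760) for OsbZIP62V and -0.07 (95% interval -0.86 to 0.72, adjusted p = 0.939) for osbzip62. Without Nipponbare replicate 3 the osbzip62 value was 0.31 (adjusted p = 0.412), and without OsbZIP62V replicate 3 the OsbZIP62V value was 0.022 (adjusted p = 0.963), so neither sign held when 1 library was left out. Fd-GOGAT did not pass between the wild types either (Kitaake over Nipponbare, log2 0.16, adjusted p = 0.779).

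ASN1 (OS03G0291500, chromosome 3) varied more between the replicates of OsbZIP62V and of Nipponbare than any other tested member. It had 31.5, 89.2 and 430 CPM in OsbZIP62V, against 47.1, 55.5 and 62.7 CPM in Kitaake. The highest OsbZIP62V library held 13.7 times the lowest, whereas the Kitaake libraries were within 1.33-fold. The log2 fold change of 1.81 (standard error 0.80, adjusted p = 0.208) did not pass and came to 0.16 (adjusted p = 0.859) without OsbZIP62V replicate 3, so that library sets it.

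The same gene had 67.9, 97.3 and 91.4 CPM in osbzip62, against 238, 289 and 25.1 CPM in Nipponbare. Here Nipponbare replicate 3 was the low library, and the highest and the lowest Nipponbare libraries differed by 11.5-fold. With all libraries the log2 fold change was -1.10 (95% interval -2.86 to 0.66, adjusted p = 0.488), and without Nipponbare replicate 3 it was -1.63 (adjusted p = 0.0291). Kitaake over Nipponbare likewise gave -1.75 (adjusted p = 0.127) with all libraries and -2.26 (adjusted p = 1.6e-04) without that one. The difference between the transgenic effects was 2.84 (adjusted p = 0.172) with all libraries and 3.39 (adjusted p = 0.0488) without it, but 1.19 (adjusted p = 0.531) without OsbZIP62V replicate 3.

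Over the 8 tested members together, the median log2 fold change in OsbZIP62V relative to Kitaake was -0.32, beside 0.02 over all genes tested. Of the members 7 lay below 0, and the share of all genes below 0 was not counted. Among the 7, GS1;1 (-0.017) and Fd-GOGAT (-0.15) changed sign in some alternatives, and GS2 (-0.18) came to -0.01 without OsbZIP62V replicate 3. Every OsbZIP62V library was below every Kitaake library for 4 of 8 members (NIA1, NIA2, NiR and AMT1;1), as it was for 14.8% of all genes tested. In osbzip62 relative to Nipponbare the members' median was -0.12, beside -0.04 over all genes, and 0 of 8 passed edgeR's test, where 0.422% of all genes did. DESeq2 also passed 0 of 8 there. In Kitaake relative to Nipponbare the median was 0.15, beside -0.04 over all genes, and 1 of 8 passed, AMT1;1, in the higher direction in which 9.51% of genes passed. Reads of Kitaake were aligned to the genome of the other cultivar, and the effect of sequence differences on its counts was not tested.

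The groups were also ranked by mean level, as a description only. Neighbours in rank can differ in both cultivar and construct. The share of all genes free of overlap was counted only for the comparisons tested above. NIA1 averaged 381 CPM in OsbZIP62V, 846 in Kitaake, 727 in osbzip62 and 761 in Nipponbare, and of the neighbours in rank only OsbZIP62V and osbzip62, at the low end, did not overlap. NIA2 averaged 82.5 CPM in OsbZIP62V, 427 in Kitaake, 295 in osbzip62 and 238 in Nipponbare, and all neighbours in rank overlapped, OsbZIP62V and Nipponbare among them. NiR averaged 518 CPM in OsbZIP62V, 737 in Kitaake, 816 in osbzip62 and 1288 in Nipponbare, and only the lowest pair, OsbZIP62V and Kitaake, was free of overlap. The lowest rank thus went to OsbZIP62V for all 3 genes of nitrate reduction, and it did for GS2 as well. AMT1;1 averaged 227 CPM in OsbZIP62V, 397 in Kitaake, 270.0 in osbzip62 and 211 in Nipponbare, and only Kitaake stood clear of the next group. GS2 averaged 2837 CPM in OsbZIP62V, 3322 in Kitaake, 3033 in osbzip62 and 3924 in Nipponbare, where osbzip62 and Kitaake were the neighbours that did not overlap. The means of GS1;1 lay between 492 and 724 CPM and those of Fd-GOGAT between 2165 and 2540 CPM, with every pair of neighbours overlapping. ASN1 averaged 184 CPM in OsbZIP62V, 55.1 in Kitaake, 85.6 in osbzip62 and 184 in Nipponbare, and only osbzip62 and Kitaake, the lowest pair, did not overlap.

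**Figure D3:**
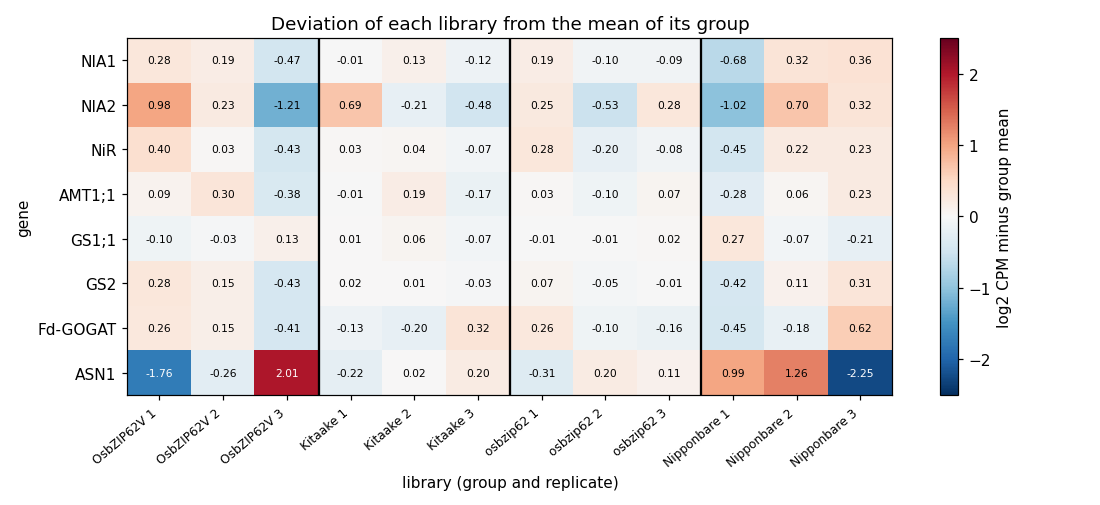
Deviation of each library's log2 CPM from the mean of its own group, for the 8 tested genes (rows) in the 12 libraries (columns), red above and blue below the group mean. In OsbZIP62V replicate 3, Kitaake replicate 3 and Nipponbare replicate 1, 6 of 8 genes are the lowest of their group (the share of all genes was not counted). ASN1 is high in OsbZIP62V replicate 3 (2.01) and low in Nipponbare replicate 3 (-2.25).

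The members also varied together between replicates of 1 group. In OsbZIP62V replicate 3, 6 of 8 were the lowest of their group and the other 2, GS1;1 and ASN1, the highest. In Kitaake replicate 3, 6 of 8 were the lowest as well, and Fd-GOGAT and ASN1 the highest. In Nipponbare replicate 1, 6 of 8 were the lowest too, and GS1;1 was the highest, and in osbzip62 replicate 2 it was 5 of 8. After subtracting the group means, the log2 levels of NIA1 correlated with those of NIA2 (r = 0.83), NiR (r = 0.94) and GS2 (r = 0.95) over the 12 libraries. Those of GS1;1 ran the other way, at r = -0.87 with NIA1 and -0.90 with GS2. ASN1 and Fd-GOGAT correlated at r = -0.83 as well. These are descriptions over libraries that also share their depth and scaling factor, and OsbZIP62V replicate 3 and Nipponbare replicate 3 had the extreme scaling factors given above. The share of all genes lowest in each library was not counted, nor were other genes correlated in this way. The pattern is thus not shown to be particular to the members. Replicates of some groups also lay apart over all genes past the filter, on the first principal component (the main axis of difference, 44.5% of variance). It held OsbZIP62V at 36.3, -67.9 and 91.6, Kitaake at -106, -107 and -111, osbzip62 at 6.31, 59.5 and -0.27, and Nipponbare at 146, 75.5 and -23.0.

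The balance between the nitrate reductases was read within each library as a ratio of RPKM, which no scaling between libraries affects. NIA1 over NIA2 was 2.101, 3.32 and 5.72 in OsbZIP62V, against 0.824, 1.69 and 1.72 in Kitaake. The groups did not overlap, and the mean log2 ratio was higher by 1.35 in OsbZIP62V, which gave the smallest p that 3 against 3 libraries allow, 0.1 (exact permutation test, two-sided), or 0.6 after adjustment over 6 such tests. The ratio was 1.55, 2.17 and 1.24 in osbzip62, against 2.75, 1.66 and 2.23 in Nipponbare (log2 difference -0.43, exact permutation p = 0.2).

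GS1;1 over GS2 was 0.325, 0.371 and 0.624 in OsbZIP62V, against 0.368, 0.384 and 0.361 in Kitaake, a log2 difference of 0.19 (exact permutation p = 0.8). It was 0.261, 0.285 and 0.284 in osbzip62, against 0.395, 0.215 and 0.170 in Nipponbare, a log2 difference of 0.18 (exact permutation p = 0.7). Neither ratio separated the groups, and OsbZIP62V replicate 3 and Nipponbare replicate 1 held the highest values. Kitaake over Nipponbare gave log2 differences of 0.60 for this ratio (exact permutation p = 0.4) and -0.70 for NIA1 over NIA2 (exact permutation p = 0.3).

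**Figure D4:**
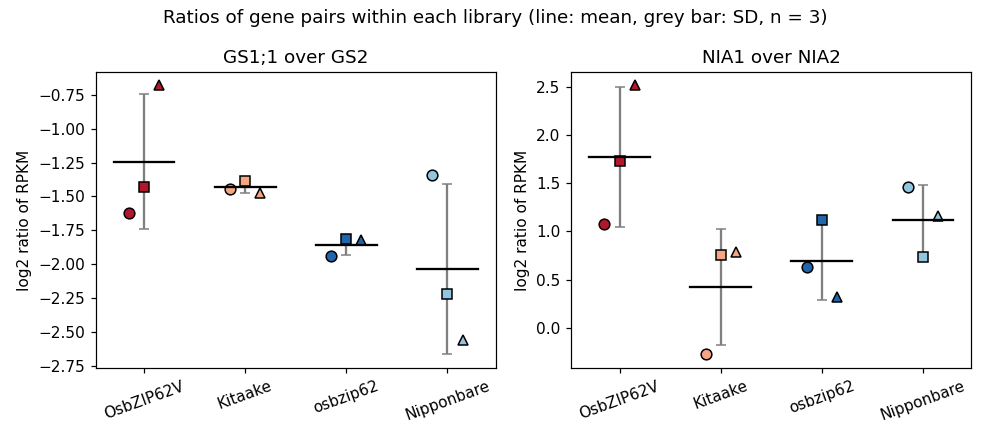
Log2 ratio of RPKM within each library for GS1;1 over GS2 and NIA1 over NIA2, by group, with the mean as a line and the SD as a grey bar (n = 3). The NIA1 over NIA2 ratios of OsbZIP62V (2.101 to 5.72 before taking logs) are all above those of Kitaake (0.824 to 1.72).

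Among 21877 other genes, those with the log2 CPM pattern most like a member over the 12 libraries were sought for the members past the test in any comparison. For NIA1 they were OS02G0693500 (Pearson r = 0.94), NIA2 (r = 0.93) and OS12G0190000 (r = 0.93). For NIA2 they were NIA1 (r = 0.93), OS01G0880400 (r = 0.93) and OS03G0169600 (r = 0.92). Each nitrate reductase was thus among the 3 genes most like the other, although Spearman's rho between them was lower, at 0.74. For AMT1;1 they were OS10G0532800, OS06G0164400 and OS06G0699301 (r = 0.97 each).

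A wider list of 34 identifiers for nitrogen transport, assimilation and its regulation was counted in the same fits, and its membership could not be checked against names either. The tables hold 33 of the 34. In OsbZIP62V relative to Kitaake 29 were tested, of which 3 passed higher and 1 lower, where 4.54% and 2.89% of all genes did. Their median log2 fold change was 0.19. Among the higher were OS05G0555600 (log2 2.08, standard error 0.35, adjusted p = 0.0151) and OS10G0554200 (log2 1.07, standard error 0.15, adjusted p = 0.00641), and the lower one was OS04G0543900 (log2 -0.80, standard error 0.16, adjusted p = 0.0250). OS05G0555600 had 1.82, 3.61 and 3.43 RPKM in OsbZIP62V, against 0.352, 0.820 and 0.734 RPKM in Kitaake, so it was a low gene in both groups.

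None of the 27 genes of this list that were tested in osbzip62 relative to Nipponbare passed edgeR's test, and 2 passed with DESeq2. Between the wild types 27 were tested, and 4 passed higher and 3 lower in Kitaake, where 9.51% and 10.4% of all genes passed. Among the higher were OS04G0650700 (log2 1.33, edgeR's adjusted p = 0.00746) and OS04G0543900 (log2 0.91, adjusted p = 0.00918). Among the lower were OS08G0155400 (log2 -1.48, adjusted p = 0.00877) and OS05G0555600 (log2 -1.33, adjusted p = 0.0267).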

How the data were processed

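RNA-seq libraries (TruSeq RNA v2, which does not mark strand, so antisense or overlapping genes cannot be told apart) were made from leaves in 4 groups of 3. Reads were trimmed by the authors (SeqPrep for adaptors, Sickle for quality) and mapped with HISAT2 2.1.0. HTSeq 0.6.1p2, Bowtie2 2.2.3 and the build IRGSP-1.0 stand in the submitters' processing notes. No source used here states the annotation release or the strand setting. The counts, as deposited, are unnormalized whole numbers for each gene. The deposited RPKM are these counts divided by gene length and library total, as checked on 10879 genes with over 50 counts in every library.

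Each comparison was fitted on its 6 libraries with TMM factors and filterByExpr, by the quasi-likelihood test of edgeR (R 4.3.3, edgeR 4.0.16, limma 3.58.1), and p-values were adjusted by Benjamini-Hochberg over all genes tested. Members and lists were counted at an adjusted p under 0.05, and genes were called at an absolute log2 fold change over 1 in addition. The difference between the transgenic effects was fitted on 12 libraries. CPM of the members used TMM factors over 12 libraries, and log2 CPM a prior count of 2. The sums of marker lists and the limit for NRT2.1 used library totals alone. Ratios of RPKM were compared by exact permutation (scipy 1.17.1 with numpy 2.4.6 and pandas 2.3.3, in Python 3.11.15), and figures drawn with matplotlib 3.10.9. The code was tested on simulated data.

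The members, lists and tests were chosen with earlier results of these data known. The text names all 9 members, the 34 listed identifiers past the test by smallest adjusted p (here at most 2 per direction, since they carry no names), and the 3 genes most correlated with each member that passed. Alternatives were DESeq2 1.42.0, other size factors (RLE), no filter, a filter of 1 CPM in all libraries, a fit of 12 libraries, a replicate block, addition of near copies and leaving out each library. Replicates of a group were distinct libraries (chi-square per degree of freedom of 8.86 or more).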

Additional observations from a re-analysis of the deposited data

Results flagged for a closer look

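The effect on AMT1;1, the ammonium transporter gene, differed between the transgenic groups by -1.16 on the log2 scale (OsbZIP62V over Kitaake minus osbzip62 over Nipponbare, edgeR's adjusted p = 0.0354 over 21878 genes). It was picked out because a test of the difference itself passed the threshold. The level in 3 of 3 OsbZIP62V libraries was below every Kitaake library (log2 fold change -0.76), as for 14.8% of the genes tested. In 3 of 3 osbzip62 libraries it was above every Nipponbare library (0.36), as for 12.8% of the genes tested. Neither effect passed in the separate fits of 6 libraries. In the fit of all 12 libraries, which gave the difference, the OsbZIP62V effect passed (log2 -0.81, edgeR's adjusted p = 0.0376). The osbzip62 effect did not pass there (log2 0.36, adjusted p = 0.342). Over all alternatives the adjusted p of the difference was 0.00141 to 0.0951. The transgenic groups are in different cultivars, so construct and cultivar cannot be told apart in this difference.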

How the results depend on the processing

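NIA1 and NIA2 kept their direction in OsbZIP62V under all 13 alternatives and passed in 10, all but the 3 fits without a Kitaake library, with an adjusted p of 1.7e-05 to 0.146 and 0.00599 to 0.176. AMT1;1 in OsbZIP62V passed with DESeq2 (adjusted p = 0.00373), at 1 CPM in all 6 libraries (0.04998), in the fit of all 12 libraries (0.0376), with the replicate block (0.0399) and without OsbZIP62V replicate 2 (0.0292). It missed the threshold otherwise, with an adjusted p of up to 0.220 (without Kitaake replicate 2). NRT2.1 was below the filter and has no main value. Where a call was lost or gained with no library left out, the cause was not tested.

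Members past the test in OsbZIP62V numbered 2 (0 to 3 without 1 library), in osbzip62 0 (0 to 1, ASN1 without Nipponbare replicate 3), between the wild types 1 (0 to 3), and for the difference between the transgenic effects 1 (0 to 2). AMT1;1 lost its call between the wild types without any 1 of the Kitaake libraries (adjusted p 0.0592 to 0.0966) or Nipponbare replicate 2. The wild types had 2 with DESeq2, at 1 CPM in all 6 libraries and in the fit of all 12 libraries, where NiR joined, and the difference 3 with DESeq2 and 0 with the replicate block (AMT1;1 at -1.17, adjusted p = 0.0743). Of the 34 listed identifiers, 4 passed in OsbZIP62V (0 to 6 without 1 library, 8 with DESeq2), 0 in osbzip62 (0 to 1, 2 with DESeq2, 1 in the fit of all 12 libraries) and 7 between the wild types (1 to 9). Under the alternatives the share of all genes past the same test was not counted. Genes that also had a log2 change over 1 either way are given next, except for the difference.

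Genes called in all came to 1178 for OsbZIP62V (206 to 3059 without 1 library, 2288 with DESeq2), 86 for osbzip62 (0 to 531, 882 with DESeq2, 521 in the fit of all 12 libraries) and 3014 for the wild types (1110 to 4914, 1911 at 1 CPM in all 6 libraries). With the replicate block they were 1014, 0 and 2623. Same-numbered libraries deviated from their group means with r of -0.26 to 0.38 and did not always correlate best with their own number, so the numbers were not taken to pair them.

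The values that changed sign were all short of the threshold. In OsbZIP62V they were GS1;1 (0.013 at 1 CPM in all 6 libraries, -0.10 to 0.033 without 1 library) and Fd-GOGAT (-0.29 to 0.022). In osbzip62 they were NIA1 (-0.33 to 0.10), NIA2 (-0.044 to 0.67) and Fd-GOGAT (-0.27 to 0.31), and between the wild types NIA1 (-0.12 to 0.32) and Fd-GOGAT (-0.049 to 0.54). For the difference between the effects they were NiR (-0.076 to 0.33), GS1;1 (-0.059 to 0.22), GS2 (-0.0077 to 0.32) and Fd-GOGAT (-0.50 to 0.073). The log2 ratio of GS1;1 to GS2 differed by -0.093 to 0.38 in OsbZIP62V and -0.078 to 0.53 in osbzip62 without 1 library.

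NRT2.1 had too few counts to be tested at this depth, and each group had 3 libraries.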
